A study of Mus musculus with 34 samples.

Results

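Genes of iron and metal handling were followed across ways of making RNA-seq libraries from mouse liver and in the heart. The set was named by gene and not by measured value. It held 10 of the 51368 genes counted: the hepcidin genes Hamp and Hamp2, the iron sensors Hfe and Tfr2, the transferrin receptor Tfrc, the iron exporter ferroportin (Slc40a1), the ferritin subunits Ftl1 and Fth1, and the metallothioneins Mt1 and Mt2. Each had counts in liver libraries of every group.

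All libraries came from wild-type C57BL/6J mouse tissue at 12 weeks of age, with no treatment or transgene, and per the labels' protocols the tissues came from 1 mouse. On the sex of the animal the labels contradict each other, and the female marker Xist had at most 10 counts in any library against at least 48 for the Y-linked Ddx3y. The liver groups were 9 libraries after polyA selection (capture by the poly(A) tail, batch 1), 9 after rRNA pull-down (removal of ribosomal RNA bound to probes, batch 2), 9 after rRNA digestion (enzymatic degradation of probe-bound ribosomal RNA, batch 2) and 3 unselected libraries in each batch. Each selected group held 1 library at every combination of 3 PCR ramp rates (slow, medium, fast) and 3 fragment lengths (short, medium, long), from 200 ng of RNA. The unselected libraries, the single heart library of batch 1 included, had a slow ramp, medium fragments and 20 ng of RNA. The libraries were preparations of the same RNA, so p-values measure only the technical spread between preparations. PolyA selection and the rRNA methods were in different batches, so their direct comparison also holds the batch, and they were compared as well relative to the unselected libraries of each batch. Each method had its own kit, and selected libraries had more input RNA than unselected ones, so selection, kit and input amount cannot be told apart in comparisons with unselected libraries.

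Iron balance in mammals is set by hepcidin, a peptide hormone that liver cells secrete and that makes ferroportin leave the cell surface and be degraded. Hepatocytes sense iron-loaded transferrin through Hfe and Tfr2, take up iron in part through Tfrc and store it in ferritin, a shell of heavy (Fth1) and light (Ftl1) subunits. Metallothioneins are small cysteine-rich proteins that bind zinc and copper. Iron regulatory proteins bind a hairpin, the iron-responsive element, in the untranslated regions of several of these messenger RNAs, where they block translation of ferritin and ferroportin or protect Tfrc RNA from decay.

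That hairpin is a feature of sequence that the choice of genes did not use. A search of 1 transcript per gene (GENCODE M21, GRCm38) for the loop CAGTGN closed by 5 paired bases on each side, with an unpaired C before the stem, matched 4 of the 10 genes and 258 of 21778 protein-coding genes (1.19%). The sites are shown because they set the ferritins, ferroportin and Tfrc apart from the other genes, with the loop in capitals. They lie in the 5′ UTR of Fth1 at chr19:9982731-9982760 (plus strand), of Ftl1 at chr7:45459779-45459808 (minus strand) and of Slc40a1 at chr1:45925465-45925494 (minus strand), and in the 3′ UTR of Tfrc, where 4 sites matched and the first lies at chr16:32631218-32631247 (plus strand).
Fth1: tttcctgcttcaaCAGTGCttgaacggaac
Ftl1: tgtcttgcttcaaCAGTGTttgaacggaac
Slc40a1: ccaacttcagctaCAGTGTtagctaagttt
Tfrc, first site: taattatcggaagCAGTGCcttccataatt
Tfrc, second site: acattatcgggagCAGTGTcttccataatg

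Hamp and Hamp2 are neighbours on chromosome 7 (chr7:30942368-30944032 and chr7:30922372-30924681, both on the minus strand) and are close copies, so reads had to be divided between them. Of the 380 stretches of 31 bases in the Hamp transcript, 128 also occurred in Hamp2 (33.7%). Counts of the pair are therefore less certain than those of Tfr2, Tfrc, Slc40a1 and Mt1, whose transcripts shared no stretch of 31 bases with another gene. Ftl1 shared 85.4% of its stretches with other genes, 80.6% with Ftl1-ps1 alone, and Fth1 shared 12.9%. Of the ferritin copies recognised by their symbols, Ftl1-ps1 averaged 0.564% of the Ftl1 mean in the liver, Ftl1-ps2 0.0116% and Fth-ps2 0.0279% of the Fth1 mean. Of these 14 copies, 10 had no count in any library. Other genes that share stretches with Ftl1 (30 genes in all) or Fth1 (3 genes, Gm6977 most) were not counted.

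Total counts ran from 19873384 to 41396087 per library, apart from the pull-down library with slow ramp and long fragments, which had 1126377 and is called the low-depth library here. Ribosomal RNA and Lars2 held 84.8% to 85.7% of the counts of unselected liver libraries and 80.6% in the heart, against 14.2% to 24.5% after pull-down and at most 1.12% after polyA selection or digestion. Levels are therefore given as CPM (counts scaled to a common library size) after TMM scaling, which corrects for a few abundant RNAs (normalised CPM). Dividing by plain library totals instead shifted the median gene by 2.67 (polyA), 2.31 (pull-down) and 2.85 (digestion) on the log2 scale against unselected libraries. Another scaling moves all genes of a library alike, so differences are to be read relative to the median gene. Markers matched the labelled tissue: 6 hepatocyte markers summed to between 44617 and 74649 normalised CPM in liver libraries, and 6 cardiomyocyte markers to at most 1.05.

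The liver of this animal had far more ferritin light chain and hepcidin RNA than RNA of the receptors. Per kilobase of transcript, the unselected libraries of batch 1 ordered the genes as Ftl1 (1779 ± 35.8 normalised CPM per kb), Hamp (1015 ± 24.03), Fth1 (627 ± 22.4), Tfr2 (78.5 ± 3.14), Slc40a1 (37.1 ± 0.894), Hamp2 (23.7 ± 1.66), Mt1 (11.45 ± 2.65), Hfe (6.69 ± 0.715), Mt2 (2.78 ± 1.72) and Tfrc (2.38 ± 0.474; SD, n = 3). Neighbours in this order did not overlap between libraries, except Mt2 and Tfrc. The first 4 places were the same in all liver groups. PolyA selection placed Hamp2 (46.0 ± 3.25, SD, n = 9) above Slc40a1 (27.1 ± 3.09).

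To ask how removing ribosomal RNA moves the level of a gene, selected libraries (200 ng of RNA) were set against unselected ones (20 ng) from the same batch. PolyA selection raised 7 of the 10 genes and lowered 1, where 50.4% of 15422 genes were called (25.6% higher and 24.8% lower; edgeR quasi-likelihood test, Benjamini-Hochberg adjusted p under 0.05). Pull-down raised 4 and lowered 2 (32.8% called, 17.5% higher and 15.3% lower), and digestion raised 1 and lowered 2 (14.7% called, 7.08% higher and 7.64% lower). The median log2 difference of the 10 genes was 0.51, 0.19 and -0.08, against 0.04, 0.06 and 0.04 over all genes tested. After polyA selection 5 of 6 hepatocyte markers also rose (median 0.59) and all 6 Kupffer cell and macrophage markers fell (median -0.90). After pull-down 4 of 6 hepatocyte (median 0.35), 5 of 6 Kupffer cell and macrophage (0.53) and 4 of 4 stellate cell markers (0.41) rose, and after digestion 4 of 6 Kupffer cell and macrophage (-0.46) and 4 of 6 erythroid markers (-5.63) fell. The liver libraries were preparations of the same RNA, so the markers are read here as RNAs recovered and not as numbers of cells. Their part in the values of the 10 genes was not tested.

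Hamp, the main hepcidin gene, went in opposite directions. It stood at 405, 423 and 420 normalised CPM in unselected libraries of batch 1 and at 414, 392 and 414 in batch 2. PolyA libraries ranged from 668 to 849 (median 759), pull-down libraries from 299 to 454 (median 324) and digestion libraries from 282 to 329 (median 298). All polyA libraries were above, and all digestion libraries below, every unselected library, while the pull-down libraries overlapped them. On the log2 scale the differences from unselected were 0.75 ± 0.07 (SE, edgeR adjusted p = 2.8e-10), -0.33 ± 0.07 (adjusted p = 0.000347) and -0.53 ± 0.07 (adjusted p = 1.18e-06).

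Hamp2, a copy whose peptide is not known to control iron, followed Hamp at a far lower level. Its unselected values were 9.68, 11.1 and 10.2 normalised CPM in batch 1 and 11.3, 10.2 and 8.59 in batch 2. It ranged from 18.4 to 21.9 (median 21.0) after polyA selection, from 6.54 to 11.1 (median 9.29) after pull-down and from 5.99 to 7.48 (median 6.84) after digestion. It rose after polyA selection (log2 0.84 ± 0.11, edgeR adjusted p = 1.05e-07) and fell after digestion (-0.67 ± 0.12, adjusted p = 0.000109), and did not pass the test after pull-down (-0.19 ± 0.11, adjusted p = 0.323). Within a library, Hamp2 counts were a median 2.44% of Hamp counts in unselected batch 1, 2.60% in batch 2, 2.73% with polyA selection, 2.25% with digestion and 2.81% with pull-down.

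Tfr2, a receptor for iron-loaded transferrin on hepatocytes, measured 238, 231 and 220 normalised CPM in unselected batch 1 and 228, 180 and 205 in batch 2. It ranged from 256 to 341 (median 308) after polyA selection, from 185 to 276 (median 257) after pull-down and from 225 to 256 (median 242) after digestion, and rose in all 3 comparisons (log2 0.41 ± 0.08, 0.28 ± 0.08 and 0.27 ± 0.08; edgeR adjusted p = 0.000125, 0.00954 and 0.0269). The last 2 calls were lost without the second unselected library of batch 2, which held the lowest value (log2 0.20 and 0.19, edgeR adjusted p = 0.108 and 0.228), and the digestion call also without the third (0.27, adjusted p = 0.0747). Hfe, which partners with the transferrin receptors, had 26.6, 23.6 and 21.5 normalised CPM in unselected batch 1 and 19.7, 25.01 and 26.2 in batch 2. It ranged from 25.8 to 30.3 (median 29.1) after polyA selection, from 18.8 to 34.9 (median 32.96) after pull-down, where the low-depth library was the lowest and the other 8 lay between 30.8 and 34.9, and from 21.4 to 23.7 (median 22.3) after digestion. It rose after polyA selection (0.25 ± 0.08, adjusted p = 0.0139; 0.18 and 0.128 without the third unselected library) and pull-down (0.47 ± 0.09, adjusted p = 5.25e-05), and its digestion value was -0.07 ± 0.09 (edgeR adjusted p = 0.70).

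Tfrc, the receptor that brings transferrin iron into most cells, did not pass the test against unselected libraries. It measured 11.9, 13.8 and 9.18 normalised CPM in unselected batch 1 and 11.3, 11.9 and 12.8 in batch 2. Selected libraries ranged from 6.69 to 13.3 (polyA, median 8.39), from 6.54 to 17.3 (pull-down, median 14.1) and from 13.8 to 14.7 (digestion, median 14.0), with log2 differences of -0.30 ± 0.20, 0.30 ± 0.20 and 0.24 ± 0.20 (edgeR adjusted p = 0.239, 0.267 and 0.488). Slc40a1, the only known cellular iron exporter, was the 1 gene of the set that fell after polyA selection. Its unselected values were 122, 128 and 126 normalised CPM in batch 1 and 130, 143 and 128 in batch 2. All polyA libraries were lower, from 78.1 to 107.6 (median 87.3; log2 -0.47 ± 0.09, edgeR adjusted p = 8.34e-05), while pull-down libraries ran from 105 to 164 (median 135; 0.02 ± 0.09, adjusted p = 0.910) and digestion libraries from 122 to 129 (median 125; -0.10 ± 0.09, adjusted p = 0.543).

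The ferritin subunits parted after pull-down. Fth1, whose product oxidises iron for storage, measured 598, 590 and 559 normalised CPM in unselected batch 1 and 555, 554 and 567 in batch 2. The pull-down libraries of ordinary depth were tightly placed between 209 and 225 (216 ± 6.87, SD, n = 8), and the low-depth library stood at 453 from 555 counts. Digestion libraries ranged from 377 to 460 (median 407) and polyA libraries from 710 to 952 (median 893). Every pull-down and digestion library was below, and every polyA library above, all unselected libraries. Fth1 fell after pull-down (log2 -1.21 ± 0.15, 2.32-fold lower, edgeR adjusted p = 1.73e-07), and by -1.37 without the low-depth library (adjusted p = 1.26e-13). It rose after polyA selection (0.61 ± 0.16, adjusted p = 0.00166). Its digestion value of -0.39 ± 0.15 missed the threshold (adjusted p = 0.0875), and was -0.43 with edgeR adjusted p = 0.000513 without the low-depth library.

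Ftl1, the light subunit, moved the other way after pull-down. It measured 1746, 1738 and 1683 normalised CPM in unselected batch 1 and 1594, 1464 and 1611 in batch 2. Selected libraries ranged from 2934 to 3343 (polyA, median 3117), from 1904 to 3037 (pull-down, median 2423) and from 1820 to 1967 (digestion, median 1884), all above every unselected library. The log2 differences were 0.83 ± 0.09 (adjusted p = 5.1e-09), 0.60 ± 0.09 (adjusted p = 3.31e-06) and 0.25 ± 0.09 (edgeR adjusted p = 0.0527), and the last was 0.24 (adjusted p = 0.00979) without the low-depth library and 0.30 (adjusted p = 0.0212) without the low-count filter.

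The metallothioneins were scarce in this liver, and their counts limited what could be seen. Mt1 had 25 to 38 counts in each unselected library and Mt2 had 2 to 10. Mt1 measured 5.15, 5.78 and 7.93 normalised CPM in unselected batch 1 and 5.65, 5.84 and 6.07 in batch 2. It rose after polyA selection (9.59 to 12.9, median 10.6; log2 0.68 ± 0.19, edgeR adjusted p = 0.00305) and pull-down (7.75 to 19.6, median 8.93; 0.51 ± 0.20, adjusted p = 0.0445), and was 5.56 to 7.08 (median 6.55; -0.03 ± 0.20, adjusted p = 0.963) after digestion. The pull-down call was lost with DESeq2 (log2 0.44, adjusted p = 0.0671) and without any 1 of the 3 unselected libraries (log2 0.49, 0.51 and 0.54, edgeR adjusted p = 0.132, 0.118 and 0.0968). Mt2 ranged from 1.78 to 2.26 (polyA, median 2.00), from 0 to 1.24 (pull-down, median 1.19) and from 0.478 to 0.811 (digestion, median 0.645), against 2.06, 1.78 and 0.417 in unselected batch 1 and 0.836, 0.834 and 1.26 in batch 2. None of its differences from unselected passed the test (log2 0.39 ± 0.28, 0.10 ± 0.33 and -0.65 ± 0.35; edgeR adjusted p = 0.311, 0.875 and 0.358).

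With totals without ribosomal RNA and Lars2 in place of TMM, some calls against unselected libraries changed. The calls of Hfe after polyA selection (log2 0.11, edgeR adjusted p = 0.303) and of Tfr2 (0.11, adjusted p = 0.402) and Mt1 (0.33, adjusted p = 0.229) after pull-down were lost. Hamp2 after pull-down (-0.36, adjusted p = 0.0269) and Ftl1 after digestion (0.35, edgeR adjusted p = 0.0112) were then called.

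**Figure D1:**
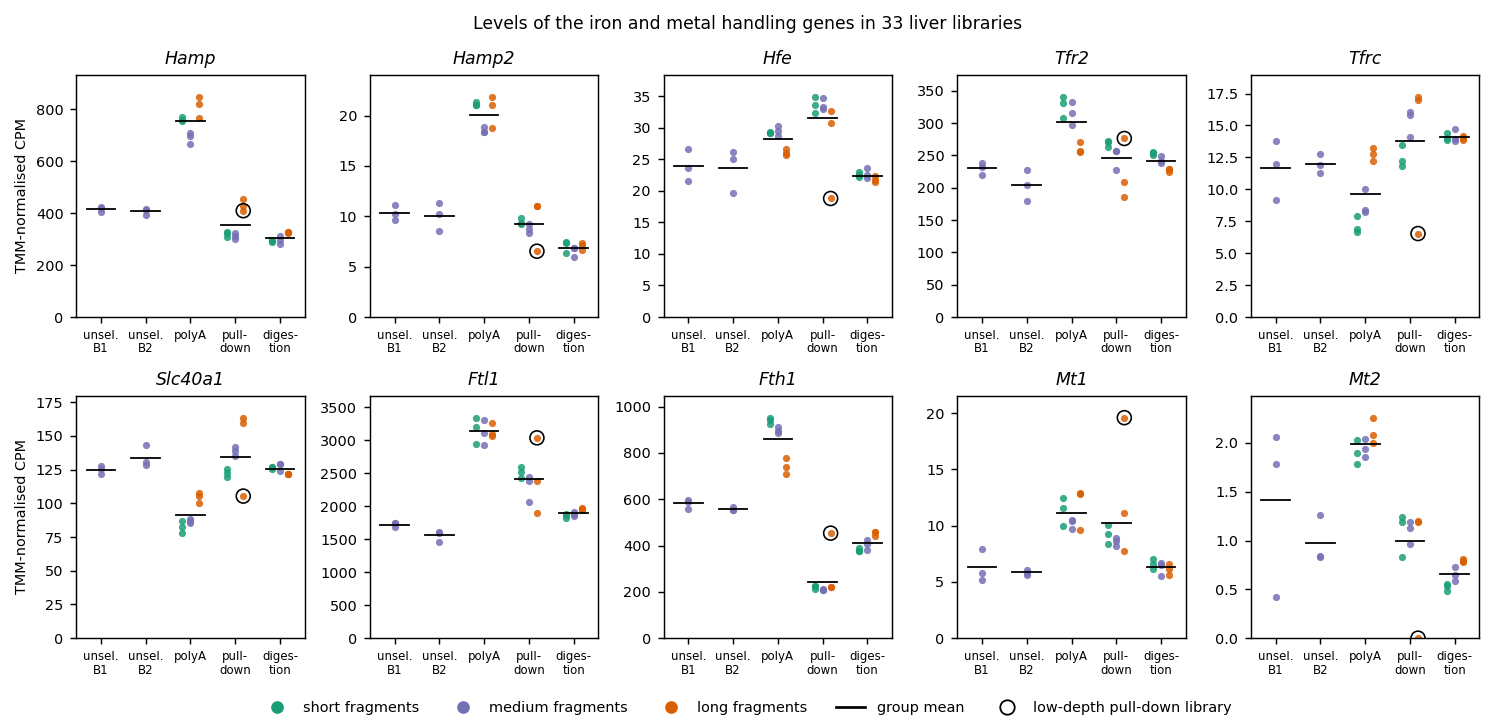
Normalised CPM (linear axes from 0, a scale for each gene) of the 10 genes in 33 liver libraries, with 1 point per library coloured by fragment length, bars at group means and the low-depth pull-down library circled. Fth1 sits at 209 to 225 in the other pull-down libraries and at 710 to 952 after polyA selection, and Slc40a1 is lower after polyA selection than in any unselected library.

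Comparing the selection methods with each other gave more calls, on 9 matched libraries a side. Digestion against pull-down, both of batch 2, differed for 8 of the 10 genes, 1 higher and 7 lower (70.7% of genes called, 34.7% higher and 36% lower). The 1 gene higher after digestion was Fth1 (log2 0.82 ± 0.10, edgeR adjusted p = 6.13e-09). The lower genes were Mt2 (-0.75 ± 0.12), Hfe (-0.54 ± 0.04), Mt1 (-0.53 ± 0.08), Hamp2 (-0.48 ± 0.05), Ftl1 (-0.34 ± 0.05), Hamp (-0.20 ± 0.04) and Slc40a1 (-0.12 ± 0.05), the last with an edgeR adjusted p of 0.048 that became 0.0874 with DESeq2 and 0.0781 without the low-count filter. Totals without ribosomal RNA and Lars2 in place of TMM moved the median gene to 0.25. The calls of Hamp (0.06, edgeR adjusted p = 0.193) and Ftl1 (-0.086, adjusted p = 0.186) were then lost. Slc40a1 was called in the other direction (0.14, edgeR adjusted p = 0.0093). Tfr2 (0.25, adjusted p = 0.000148) and Tfrc (0.20, adjusted p = 0.0269), not called with TMM, were called as higher after digestion. With plain library totals, which moved the median gene to 0.55, the calls of Mt2 (-0.19), Hamp2 (0.080), Hfe (0.021) and Mt1 (0.022) were lost (edgeR adjusted p = 0.155, 0.135, 0.712 and 0.803), and Hamp (0.36), Slc40a1 (0.44) and Ftl1 (0.21) were called in the other direction. All 6 hepatocyte markers (median -0.42), all 6 Kupffer cell and macrophage markers (-0.93), all 5 sinusoidal endothelial markers (-0.57) and all 4 stellate cell markers (-0.62) were also lower after digestion than after pull-down, and their part in the values was not tested.

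With TMM scaling, polyA selection differed from both rRNA methods for all 10 genes. Against pull-down 7 were higher and 3 lower (72.6% of genes called, 36.4% higher and 36.2% lower), and against digestion 8 were higher and 2 lower (80.6% called, 38.4% higher and 42.2% lower). Against pull-down all Kupffer cell and macrophage (median -1.20), endothelial (-1.20) and stellate cell markers (-1.23) were lower after polyA selection and 5 of 6 hepatocyte markers higher (0.30). Against digestion 5 of 6 hepatocyte (0.67) and 5 of 6 erythroid markers (6.13) were higher, with 1 of each lower. Lower were 4 of 6 Kupffer cell and macrophage (-0.38), 4 of 5 endothelial (-0.61) and 2 of 4 stellate cell markers (-0.61), with 1 of each higher. The part of the markers was not tested in either comparison. The largest difference from pull-down was Fth1 (log2 1.88 ± 0.10, 3.69-fold, edgeR adjusted p = 5.42e-17), followed by Hamp (1.105 ± 0.042) and Hamp2 (1.06 ± 0.05). The largest differences from digestion were Mt2 (1.58 ± 0.10, 2.99-fold, edgeR adjusted p = 5.69e-15), Hamp2 (1.54 ± 0.05) and Hamp (1.30 ± 0.04). Tfrc and Slc40a1 were lower after polyA selection in both direct comparisons (Tfrc -0.65 ± 0.09 and -0.58 ± 0.09, Slc40a1 -0.59 ± 0.05 and -0.47 ± 0.05), and Hfe was lower than after pull-down (-0.20 ± 0.04) and higher than after digestion (0.34 ± 0.04). With totals without ribosomal RNA and Lars2 the digestion comparison lost the calls of Hfe (0.089, edgeR adjusted p = 0.0516) and Tfr2 (0.066, adjusted p = 0.257), as it did with plain library totals (0.091 and 0.068, edgeR adjusted p = 0.076 and 0.260). Against pull-down, plain library totals moved the median gene to 0.32. Hfe was then called in the other direction (0.11, edgeR adjusted p = 0.0333). When each method was first taken relative to the unselected libraries of its own batch, 4 genes stayed called against pull-down (Hamp, Hamp2, Slc40a1 and Fth1; 29.1% of all genes called) and 7 against digestion (42.1% of all genes called). Tfrc lost its call in both (-0.60 and -0.54, edgeR adjusted p = 0.0966 and 0.110), as did Tfr2 (0.13 and 0.14, adjusted p = 0.389 and 0.290) and Mt2 (0.29 and 1.04, adjusted p = 0.745 and 0.102). Against digestion Hamp2 (1.503) then had the largest difference. Hfe, Ftl1 and Mt1 lost their calls against pull-down alone (-0.22, 0.23 and 0.17, edgeR adjusted p = 0.149, 0.108 and 0.702). The batches themselves, compared on unselected libraries, differed for 0 of the 9 genes tested (edgeR adjusted p from 0.163 to 0.999, and DESeq2 called 0). Over all genes 0.366% of 10642 were called. Of the 9 genes, 3 had an unadjusted edgeR p under 0.05, beside 989 of the 10642. Mt2 had too few counts to be tested there. Between batches Ftl1 was called without the low-count filter (log2 -0.13, edgeR adjusted p = 0.032), and Tfr2 without the first unselected library of batch 2 (-0.23, adjusted p = 0.0347).

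A ratio of 2 genes within a library does not depend on how libraries are scaled. The light to heavy ferritin ratio, Ftl1 over Fth1 counts, was 2.92 to 3.01 in unselected batch 1, 2.64 to 2.87 in batch 2, 3.09 to 4.403 after polyA selection (median 3.55), 4.25 to 4.99 after digestion (median 4.68) and 6.70 to 11.97 after pull-down (median 10.9). Pull-down libraries did not overlap any other group. Over 9 matched pairs the ratio was lower than after pull-down in 9 of 9 pairs for digestion (mean log2 difference -1.15, SD 0.24) and for polyA selection (-1.48, SD 0.38), each with an exact sign-flip p of 0.00391, the smallest that 9 pairs allow, and an adjusted p of 0.00893 over 16 tests. PolyA selection was below digestion in 8 of 9 pairs (-0.33, SD 0.26; adjusted p = 0.0234 by the exact test). With fragment length, long minus short, the ratio moved by a mean of -0.08 (SD 0.36; adjusted p = 0.677 by the exact test), falling in 6 of 9 pairs.

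**Figure D2:**
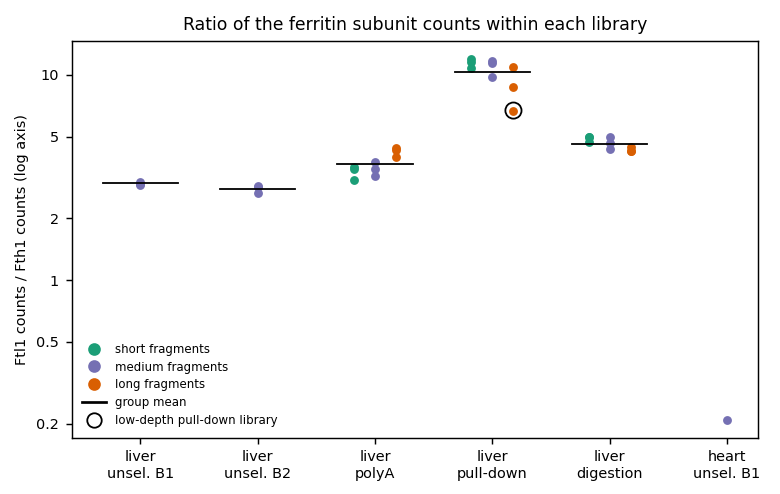
Ftl1 counts divided by Fth1 counts in each library (log axis), with 1 point per library coloured by fragment length and bars at the means of liver groups. Pull-down libraries lie between 6.70 and 11.97, above all other groups, the circled low-depth library being the lowest of them, and the heart library lies at 0.209.

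Of the other pairs of genes, Mt2 over Mt1 was higher after polyA selection than after pull-down (mean log2 difference 0.82, SD 0.84) and digestion (0.79, SD 0.30), in 9 of 9 pairs each (exact sign-flip p = 0.00391, adjusted p = 0.00893), and the low-depth pull-down library had no Mt2 count. The unselected libraries, with 2 to 10 Mt2 counts each, had ratios of 0.0526 to 0.40 (median 0.308) in batch 1 and 0.143 to 0.207 (median 0.148) in batch 2, and the polyA ratios (0.153 to 0.209, median 0.186) lay within the range of their batch. The median was 0.118 with pull-down and 0.11 with digestion. Without the low-depth library the first difference was 0.55 (exact, adjusted p = 0.0125), and the digestion minus pull-down difference went from 0.03 (adjusted p = 0.992) to -0.31 (adjusted p = 0.0312). Hamp2 over Hamp was lower after digestion than after pull-down in 8 of 9 pairs (-0.23, SD 0.22, adjusted p = 0.0437, exact). It was lower after digestion than after polyA selection in 9 of 9 pairs (polyA minus digestion 0.24, SD 0.16, adjusted p = 0.00893, exact) and lower with long than with short fragments in 9 of 9 pairs (-0.24, SD 0.21, adjusted p = 0.00893, exact). Tfr2 over Tfrc was higher after polyA selection than after digestion in 9 of 9 pairs (0.91, SD 0.49, adjusted p = 0.00893, exact) and than after pull-down in 8 of 9 (0.82, SD 0.70, exact p = 0.0195, adjusted p = 0.0347). For long minus short fragments it was lower in 8 of 9 pairs and missed the threshold (-0.54, SD 0.69, adjusted p = 0.0511, exact).

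Fragment length changed 5 of the 10 genes over all methods, 3 up and 2 down (46.3% of 14454 genes called, 25.7% higher and 20.5% lower with long fragments). Tfrc (log2 0.41 ± 0.09, edgeR adjusted p = 0.000794), Hamp (0.24 ± 0.05, adjusted p = 0.000474) and Slc40a1 (0.20 ± 0.06, adjusted p = 0.00565) were higher with long fragments. Tfr2 (-0.25 ± 0.05, adjusted p = 0.000306) and Hfe (-0.11 ± 0.04, adjusted p = 0.0224) were lower, and Hfe missed the threshold without the low-count filter (-0.10, edgeR adjusted p = 0.0901). With plain library totals the Slc40a1 call was lost (0.11, edgeR adjusted p = 0.0744), and without the low-depth library Mt2 was called too (0.25, adjusted p = 0.0484). With long fragments 5 of 6 Kupffer cell and macrophage (median 0.21), 3 of 5 endothelial (0.10) and 2 of 4 stellate cell markers (0.22) were also higher and none of these lower, and their part in the values was not tested. The ramp rate called 0 of the 10 genes (fast against slow, edgeR adjusted p = 1 for each, and 0 of 10 with DESeq2) and 0.00692% of all genes. None of the 10 had an unadjusted edgeR p under 0.05, where 599 of 14454 genes did.

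The length effect depended on the method for 4 genes, Tfrc (edgeR interaction test, adjusted p = 0.000182), Hamp (0.000824), Slc40a1 (0.00299) and Fth1 (0.0101), where 34.1% of genes were called. All 6 Kupffer cell and macrophage, 4 of 5 endothelial and 3 of 4 stellate cell markers passed too. Their median log2 values, pull-down minus polyA, were 0.43, 0.30 and 0.27. Of 6 hepatocyte markers 1 passed in each direction. The part of the markers was not tested. Tfrc in polyA libraries went from 7.93, 6.69 and 6.93 normalised CPM with short fragments to 12.8, 12.3 and 13.3 with long ones in order of slow, medium and fast ramp (log2 0.82 ± 0.07, edgeR adjusted p = 1.67e-06). In digestion libraries it stayed between 13.8 and 14.7 at all lengths (-0.01 ± 0.05, adjusted p = 0.942). Slc40a1 rose with length after polyA selection (0.32 ± 0.03, adjusted p = 6.53e-06), from 87.2, 78.1 and 82.1 to 107.6, 99.98 and 105, and measured -0.05 ± 0.02 after digestion (adjusted p = 0.0902). Fth1 fell with length after polyA selection, from 952, 942 and 923 to 779, 741 and 710 (-0.36 ± 0.02, adjusted p = 4.72e-07), and rose after digestion, from 377, 378 and 388 to 460, 442 and 458 (0.25 ± 0.03, edgeR adjusted p = 1.67e-05). The long and short libraries did not overlap in these polyA and digestion comparisons of Fth1.

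Hamp was higher with long than with short fragments in each method, while its medium fragments lay below the short ones after polyA selection (means of 691 medium, 762 short and 812 long). The long minus short difference was 0.07 ± 0.03 after polyA selection (edgeR adjusted p = 0.0324), 0.44 ± 0.09 after pull-down (adjusted p = 0.0327) and 0.15 ± 0.02 after digestion (adjusted p = 0.000331). The polyA call was lost without the slow or the fast ramp libraries (edgeR adjusted p = 0.313 and 0.072), where the log2 values were 0.04 and 0.08. It was also lost with plain library totals and with totals without ribosomal RNA and Lars2 (log2 0.020 and 0.022, edgeR adjusted p = 0.509 and 0.477). The pull-down call was lost without the medium or the fast ramp libraries, where the log2 values of 0.45 and 0.37 stayed near the 0.44 of all libraries (edgeR adjusted p = 0.893 and 0.559), and with plain library totals (0.27, adjusted p = 0.0682). Its pull-down values were 324, 326 and 309 with short fragments and 409, 428 and 454 with long ones. In polyA libraries 6 of the 10 genes were called (3 up, 3 down; 56.3% of genes called, 27.7% higher and 28.7% lower), Tfr2 (-0.34 ± 0.03) and Hfe (-0.18 ± 0.04) being the other two that fell. In digestion libraries 4 were called (3 up, 1 down; 18.3% called, 8.97% higher and 9.34% lower), among them Ftl1 (0.08 ± 0.02) and Tfr2 (-0.16 ± 0.02). In pull-down libraries Hamp alone was called (6.23% called, 4.59% higher and 1.64% lower). Without the low-depth library, the count over all genes after pull-down went from 880 to 5398, and Slc40a1 (0.43), Tfrc (0.47), Hamp2 (0.24), Tfr2 (-0.47) and Ftl1 (-0.28) were then called as well (edgeR adjusted p from 6.08e-05 to 0.0419).

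**Figure D3:**
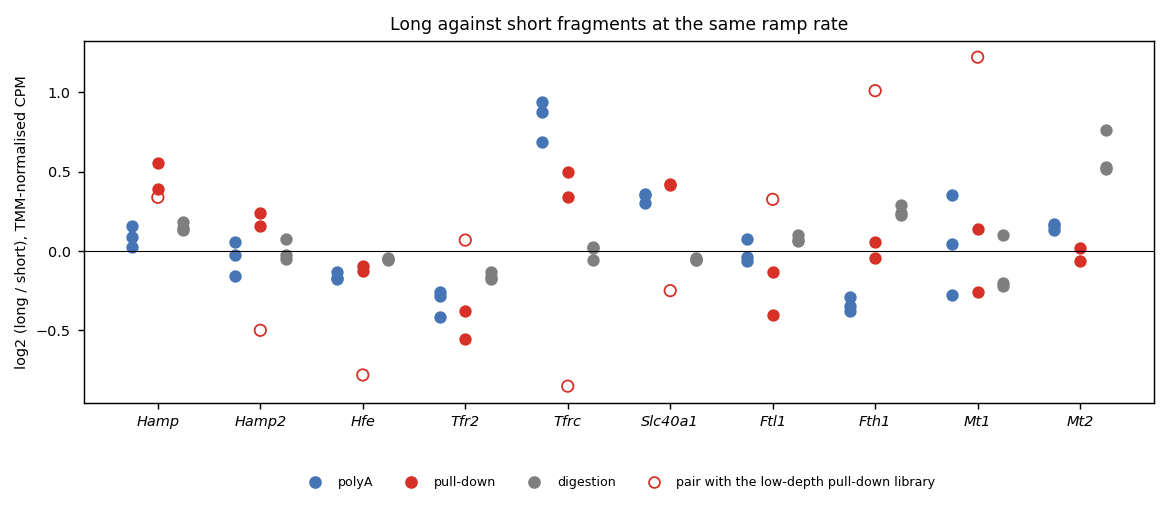
log2 ratio of normalised CPM with long to short fragments at the same ramp rate, 1 point per ramp rate and method, for each of the 10 genes, with open points for the pair that holds the low-depth pull-down library (absent for Mt2, which had no count there). Tfrc lies well above 0 in polyA libraries and near 0 in digestion libraries, and Fth1 lies below 0 in the former and above 0 in the latter.

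Values are set here beside those of transcripts of like length. Long minus short fragments, over genes with a mean of at least 10 normalised CPM, had a median log2 value of 0.24 in polyA libraries for 144 genes with transcripts of up to 600 bases, and of 0.06 for 3412 genes with transcripts over 3000 bases. The middle part of the latter bin, between its quartiles, ran from -0.18 to 0.32. Tfrc (4890 bases, 0.82) lay above that span in polyA libraries, while Slc40a1 (3370 bases, 0.32) and Hfe (3572 bases, -0.18) lay near its ends. After pull-down the medians for the same bins were 0.38 and -0.07, and after digestion 0.27 and -0.03. Hamp (410 bases) measured 0.07, 0.44 and 0.15 after polyA selection, pull-down and digestion, beside medians of 0.24, 0.38 and 0.27 for transcripts of up to 600 bases. Fth1 (929 bases) measured -0.36 after polyA selection and 0.25 after digestion. Both lay outside the quartiles of 871 transcripts of 600 to 1500 bases, which were -0.22 and 0.21 after polyA selection and -0.0077 and 0.20 after digestion. Tfr2 (2926 bases) measured -0.34, -0.28 and -0.16 after polyA selection, pull-down and digestion, the pull-down value not being called. The lower quartiles of 2157 transcripts of 1500 to 3000 bases were -0.25, -0.20 and -0.069.

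The heart library was set against the 3 unselected liver libraries of its batch to compare the tissues. There is 1 heart library, so no test was made, differences of 2-fold or more were counted, and intervals cover counting error only. In whole tissue, fewer cells of a type and less RNA per cell cannot be told apart. Of the 10 genes, 3 were at least 2-fold higher in the heart and 5 at least 2-fold lower (49.5% of 12828 genes passed that fold, 26.2% higher and 23.4% lower).

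Both hepcidin genes, Tfr2 and ferroportin were at lower levels in the heart. Hamp had 18 counts in the heart against 1965, 1903 and 2012 in the liver, a level 167-fold lower (95% interval 105 to 282). Tfr2 had 5 counts against 1156, 1040 and 1054, 332-fold lower (142 to 1023). Hamp2 had no count in the heart against 47, 50 and 49, which makes it at least 24.9-fold lower at a floor of 3 counts per library. The lower end of its 95% counting interval was 19.96-fold. Slc40a1 had 96 counts against 591, 574 and 602 (9.41-fold lower, 7.65 to 11.7).

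The ferritin subunits differed between tissues. Ftl1 had 752 counts in the heart against 8476, 7815 and 8062 in the liver (16.5-fold lower, 15.4 to 17.8). Fth1 had 3595 against 2904, 2652 and 2677, 1.17-fold lower in normalised CPM (1.12 to 1.22), and with plain library totals the log2 ratio was 0.30 in the other direction. The Ftl1 to Fth1 ratio was 0.209 in the heart, so heavy chain counts exceeded light chain counts there, while light chain counts exceeded heavy chain counts in each of the 33 liver libraries.

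Tfrc, Mt1 and Mt2 were higher in the heart. Tfrc had 350 counts against 58, 62 and 44 (4.16-fold, 3.46 to 5.06), Mt1 had 185 against 25, 26 and 38 (4.07-fold, 3.14 to 5.30), and Mt2 had 33 against 10, 8 and 2 (3.07-fold, 1.80 to 5.94). Hfe, with 118 against 129, 106 and 103 counts, was 1.46-fold lower (1.18 to 1.82), while with plain library totals the log2 ratio was -0.023. Hepatocyte markers were lower in the heart by a median log2 ratio of -8.13 and cardiomyocyte markers higher by 11.9, and Kupffer cell and macrophage markers had a median of -3.01. The part of these cell types in the values of single genes was not tested.

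**Figure D4:**
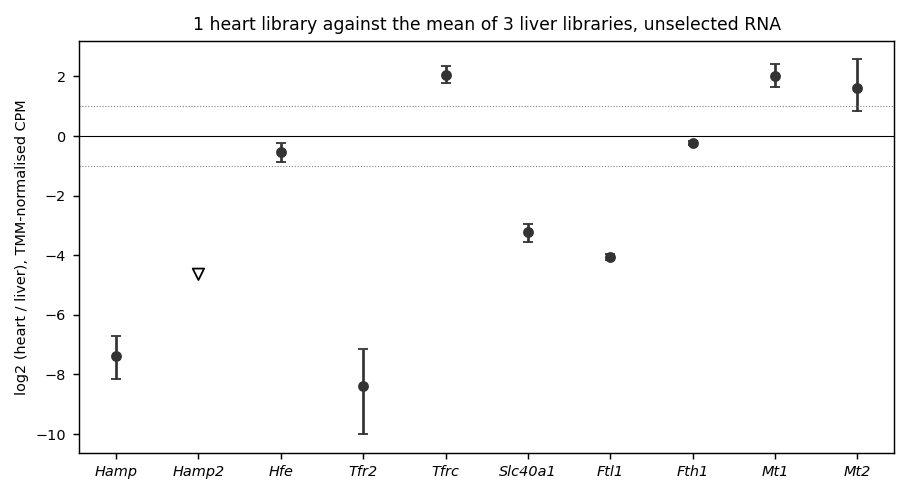
log2 ratio of normalised CPM in the heart library to the mean of 3 liver libraries, for each of the 10 genes, with 95% counting intervals as bars, dotted lines at 2-fold and an open triangle for Hamp2, an upper bound of the ratio set by a floor of 3 counts. Tfrc, Mt1 and Mt2 lie above the upper dotted line, and Hamp, Hamp2, Tfr2, Slc40a1 and Ftl1 below the lower one.

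Other genes of the same pathways were counted from lists, beside 50.4%, 32.8% and 14.7% of all genes called for polyA selection, pull-down and digestion against unselected, and 26.2% at least 2-fold higher and 23.4% lower in the heart. Of 19 genes that control hepcidin, 18 were tested. After polyA selection 2 rose and 10 fell (median log2 -0.35, all genes 0.04), the largest changes being Bmpr2 (-2.25 ± 0.15, edgeR adjusted p = 8.15e-14), a receptor of bone morphogenetic proteins, and its ligand Bmp2 (-1.15 ± 0.13). After digestion 5 rose and 0 fell, led by Smad6 (0.78 ± 0.26) and Atoh8 (0.62 ± 0.19), and after pull-down 1 rose and 6 fell. Markers of sinusoidal endothelium, a source of Bmp2 in the liver, fell in 4 of 5 cases after polyA selection (median -0.70, summed level 73.4 to 77.3 normalised CPM against 149.1 to 159.5), and 3 of 4 stellate cell markers fell too (median -0.77, 73.6 to 89.5 against 151.0 to 156.7). After pull-down 4 of 5 endothelial and 4 of 4 stellate cell markers rose, and after digestion 2 of 5 and 2 of 4 fell. Their part in these values was not tested. In the heart 4 of 18 were at least 2-fold higher and 4 lower. Neo1 (4.09-fold) and Bmp6 (3.70-fold), the ligand that induces hepcidin, were the highest. Tmprss6, the protease that holds hepcidin down, was lowest with 3 counts (652-fold lower, 223 to 3160), followed by Bmp2 (11.1-fold lower). In the heart 4 of 5 endothelial markers were at least 2-fold lower (median log2 -5.57). Of 4 stellate cell markers 3 were lower and 1 higher (median -2.40). The part of these markers was not tested.

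Of 23 genes of iron uptake, transport and storage, 21 were tested. After polyA selection 9 rose and 3 fell, with Lcn2 (log2 1.02 ± 0.41, edgeR adjusted p = 0.0386), a carrier of bacterial iron chelators, and Ireb2 (-0.76 ± 0.15), an iron regulatory protein, showing the largest changes. After digestion 4 rose and 1 fell, led by Iscu (0.72 ± 0.14) and Pcbp1 (0.55 ± 0.13), and after pull-down 7 rose and 6 fell. In the heart 10 of 20 were at least 2-fold lower and 0 higher. Trf, the plasma carrier transferrin, was 165-fold lower and Cp, ceruloplasmin, 10.8-fold lower, while Fbxl5 (1.52-fold) and Steap3 (1.38-fold) had the highest ratios.

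All 18 genes of heme and haemoglobin iron were tested. After polyA selection 14 rose and 2 fell (median log2 0.49, all genes 0.04), the largest changes being falls of Cd163 (-1.64 ± 0.14, edgeR adjusted p = 3.89e-11), the macrophage receptor for haptoglobin bound to haemoglobin, and Lrp1 (-0.91 ± 0.15). Hepatocyte markers rose too (5 of 6, median 0.59, summed level 68431 to 74649 normalised CPM against 53190 to 53808), as did 4 of 6 erythroid markers (410 to 518 against 322 to 333). All 6 Kupffer cell and macrophage markers fell, their sum being 91.1 to 95.9 normalised CPM after polyA selection against 140.5 to 147.8 in unselected libraries. The part of these markers in the values of the list was not tested. After digestion 4 rose and 5 fell, Cd163 (-0.77 ± 0.14) and Blvra (-0.75 ± 0.14) most, and after pull-down 10 rose and 1 fell. Of the 6 macrophage markers 4 fell after digestion (median -0.46, summed level 104.9 to 117.6 against 133.4 to 145.4) and 5 rose after pull-down (median 0.53, 197.7 to 273.2), and their part was not tested there either. In the heart 9 of 18 were at least 2-fold lower and 0 higher, Hpx (335-fold), which carries heme, and Hp (228-fold), which carries haemoglobin, most of all, while Flvcr1 (1.89-fold) and Cd163 (1.22-fold) had the highest ratios. The haemoglobin genes Hba-a1 (log2 -7.42 ± 0.32) and Hba-a2 (-6.43 ± 0.16) were far lower after digestion than in unselected libraries, and the 6 erythroid markers summed to 73.8 to 79.0 normalised CPM there against 280 to 297.

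Of 26 genes of zinc and copper handling, 24 were tested. After polyA selection 6 rose and 4 fell, with the copper pump Atp7a (-1.48 ± 0.12, edgeR adjusted p = 7.8e-12) and the zinc transporter Slc39a7 (1.20 ± 0.11) showing the largest changes. After digestion 3 rose and 2 fell, Ccs (-0.56 ± 0.09) and Commd1 (-0.50 ± 0.13) most, and after pull-down 5 rose and 5 fell. In the heart 3 were at least 2-fold higher and 10 lower. Slc39a10 (3.89-fold) and Slc31a2 (2.43-fold) were the highest. Atp7b, the copper pump of hepatocytes, had 3 counts in the heart (98.8-fold lower, 33.6 to 479), and Slc39a4 had 2 (89.4-fold lower, 24.6 to 741). Slc30a10 had no count in the heart against 298 in the 3 liver libraries together, at least 50.7-fold lower at the floor of 3 counts. It is named here after its values were seen, since the order of the 3 is not known at these counts.

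The near copy Ftl1-ps1, annotated as protein coding on chromosome 13, differed between fragment lengths after polyA selection, where it averaged 16.8 ± 1.33 normalised CPM with short fragments and 6.13 ± 1.02 with long ones (SD, n = 3 each), while Ftl1 itself was 3160 ± 203 and 3142 ± 106. Digestion libraries gave Ftl1-ps1 9.95 ± 0.657 and 9.70 ± 0.682, and pull-down libraries 25.7 ± 5.82 and 19.04 ± 10.4, with the low-depth library at 7.35. The other copies named had at most 43.5 (Ftl1-ps2) and 20 (Fth-ps2) expected counts in any liver library.

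Over the 33 liver libraries, the genes whose log2 level followed a member most closely were found among 6588 genes by Pearson's r, given as a description because the libraries share methods and depth. For Hamp they were Psmd7 (r = 0.97), F11r (0.97) and Saa4 (0.96). For Fth1 they were Rtp3 (0.99), Srp68 (0.98) and Mdh2 (0.97). Tfrc was followed by Magt1, Ipo7 and Retreg1 (0.95 each), and Mt2 by Sbds (0.87), Aifm1 (0.85) and Mmadhc (0.85).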

How the data were processed

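RNA-seq was analysed for 34 mouse libraries (33 liver, 1 heart). The authors deposited 1 table of expected counts, estimated for each gene and library. The submitters' processing notes name UMI-tools 1.1.1, Salmon 1.9.0, R 4.4.0 and the build GRCm38, without saying what each did, and no value column was left unused. Expected counts were rounded. Names and coordinates came from GENCODE M21 (GRCm38), which matched 50896 of 51368 identifiers, and the transcript taken per gene (best APPRIS rank, then lowest number) was a later choice, made with the data in view, as were the searches for hairpins, shared stretches and length bins.

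The members, lists and tests were chosen with earlier results of these data known. Groups came from the labels. Calls used the edgeR 4.0.16 quasi-likelihood test (R 4.3.3) with TMM, filterByExpr and Benjamini-Hochberg adjustment over all genes tested, at 0.05. Method comparisons were fitted on the 33 liver libraries with ramp and length as covariates, length and ramp on the 27 selected libraries, and the batch on the 6 unselected ones. The standard error is the log2 difference divided by the square root of F. Normalised CPM of the heart comparison was scaled over its 4 libraries only, with exact binomial intervals (95%) on heart against summed liver counts and a floor of 3 counts per library. Ratios within a library used a pseudocount of 0.5 and two-sided exact sign-flip tests. Named pathway genes were the 2 with the largest called change in polyA and digestion against unselected, and the 2 with the largest ratio each way in the heart with at least 10 counts in the higher tissue. The 3 near copies named had the highest mean count.

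Alternatives were other scalings, DESeq2 1.42.0, no low-count filter, libraries left out, a replicate block and a pseudocount of 1. The fits were tested on simulated data: for digestion against unselected, 90% of genes changed by a log2 value of 1 and 57% of those changed by 0.5 were called. The changed genes were drawn only from those above a minimum mean count, so these shares need not hold for scarce genes such as Mt2. Unselected replicates differed by more than sampling noise (chi-square per degree of freedom 1.41 to 3.85), so none was counted as a duplicate. A comparison of the coding sequences of a pair of genes is not reported here.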

Additional observations from a re-analysis of the deposited data

Results flagged for a closer look

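In the 30 sets of 9 libraries examined (10 genes in 3 methods), 5 had a library far from the others by Dixon's test, where chance gives about 1 in 20. All 5 were the low-depth pull-down library with slow ramp and long fragments. Its normalised CPM was 18.8 for Hfe, 6.54 for Tfrc, 453 for Fth1, 19.6 for Mt1 and 0 for Mt2, from 23, 8, 555, 24 and 0 counts. The other 8 pull-down libraries spanned 30.8 to 34.9 for Hfe, 11.8 to 17.3 for Tfrc, 209 to 225 for Fth1, 7.75 to 11.1 for Mt1 and 0.827 to 1.24 for Mt2. Its lower depth moves with these values and its part in them was not tested.

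The effect of long against short fragments differed between methods for 4 genes by the edgeR interaction test. As pull-down minus polyA, the log2 difference was 0.40 for Hamp (adjusted p = 0.000824), -0.34 for Tfrc (adjusted p = 0.000182), 0.052 for Slc40a1 (adjusted p = 0.00299) and 0.72 for Fth1 (adjusted p = 0.0101). As digestion minus polyA it was 0.10, -0.80, -0.35 and 0.62. Without the low-depth library the pull-down minus polyA value was 0.38 for Fth1 and 0.13 for Slc40a1, and the interaction tests of Tfr2, Ftl1 and Hamp2 also passed (adjusted p = 0.00129, 0.00618 and 0.0492).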

How the results depend on the processing

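Of 939 recomputed values of single genes, 832 were classed as unchanged, 37 lost a call, 27 gained one and 29 turned direction. Another 14 values without a test moved by more than the replicate spread. A turn of direction was counted only where the value was called before or after the change. Values called in neither fit were classed as unchanged even where their sign changed. An example is Fth1 for long against short fragments (0.10, and -0.02 without the low-depth library). With plain library totals, 14619 genes were called for polyA, 14677 for pull-down and 15143 for digestion against unselected, 103 between batches, 2 for ramp and 2520 for length after pull-down. The log2 values that turned direction under these totals were, against unselected, 2.35 for Tfrc and 2.19 for Slc40a1 after polyA selection, 1.93, 2.07 and 1.05 for Hamp, Hamp2 and Fth1 after pull-down, and 2.29, 2.15, 2.75, 2.72, 2.43, 2.79 and 2.14 for Hamp, Hamp2, Hfe, Slc40a1, Fth1, Mt1 and Mt2 after digestion. For digestion against pull-down they were 0.36, 0.080, 0.021, 0.55, 0.50, 0.44, 0.21 and 0.022 for Hamp, Hamp2, Hfe, Tfr2, Tfrc, Slc40a1, Ftl1 and Mt1, where the median gene moved to 0.55. Hfe turned to 0.11 for polyA against pull-down, and the interaction terms of Hfe and Slc40a1 to -0.055 and -0.10. With totals without ribosomal RNA and Lars2, Hamp, Tfr2, Tfrc and Slc40a1 became 0.062, 0.25, 0.20 and 0.14 for digestion against pull-down, and 2 genes were called for ramp. DESeq2 called 7 genes between batches, 5 for ramp and 1060 for length after digestion, and no low-count filter gave 120 between batches and 7 for ramp. Without the low-depth library 4 genes were called for ramp and 5398 for length after pull-down, the interaction terms of Tfr2 and Ftl1 became -0.096 and -0.20, Mt2 over Mt1 for digestion minus pull-down -0.31, and Tfr2 over Tfrc for long minus short went from -0.54 to -0.71 (exact test, adjusted p = 0.0511 and 0.0125). Taken relative to the unselected libraries of each batch, 4492 genes were called for polyA against pull-down and 6496 against digestion. Leaving out 1 replicate or ramp rate at a time gave 12 to 64 genes between batches, 1303 to 1635 for digestion against unselected, 26 to 4597 for length after pull-down (4597 without the slow ramp, which holds the low-depth library) and 1584 to 2075 for length after digestion. Beyond the constructions named, the cause of these changes was not tested.

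Unselected replicates of the batches share numbers, but same-numbered libraries did not deviate together (r = 0.000894, -0.0483 and -0.0706). With the replicate block 91 genes were called between batches, Ftl1 among them (log2 -0.13, edgeR adjusted p = 0.0315). Depth limits Mt2, with 2 to 10 counts in unselected libraries, and the low-depth library.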
